A study of Homo sapiens with 8 samples.

Results

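Open chromatin was followed at 3374 windows of the genome where FAIRE signal was highest in both libraries of cells given doxycycline and etoposide together. They were taken from a deposited table of 256141 overlapping windows of 150 bp, whose starts lie 50 bp apart within a stretch, on the hg19 build. The members were chosen by their own measured levels. Each count was scaled to a column total of 1000000 (CPM), and a window was kept where the lower of the 2 DoxEtop libraries was more than 1.25 times the highest of the other 6 libraries. This quotient is called the ratio below. The kept windows made up 1.32% of the table and lay in 1981 of 35741 regions, where a region joins windows separated by 100 bp or less. High DoxEtop levels at these windows, and levels below them elsewhere, follow from that choice and are given as a description without a test.

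The cells were AIRE-Tet, a Tet-On Advanced HEK293 line of human embryonic kidney origin in which doxycycline switches on human AIRE. Both treatments were crossed in 4 groups of 2 independent biological replicates. DoxEtop cells received 1.5 µM doxycycline and, once AIRE had been induced for 24 h, 2 µM etoposide for 24 h. Dox cells received 1.5 µM doxycycline alone, Etop cells 2 µM etoposide alone for 24 h, and Control cells neither. All groups carry the inducible transgene. Doxycycline given to cells without it was not analysed here, so the drug and AIRE itself cannot be told apart. The line is not a thymic cell.

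AIRE (autoimmune regulator) is a nuclear protein of medullary thymic epithelial cells that raises the expression of many tissue-restricted genes and so lets maturing T cells meet self antigens. It is known to associate with topoisomerases and with proteins of the DNA break response. Etoposide traps topoisomerase II on DNA after it has cut both strands, which leaves breaks. In FAIRE-seq, fixed chromatin is extracted with phenol and chloroform and the DNA left in the water phase is sequenced. That DNA is poor in nucleosomes, as at active promoters and enhancers, so a high count marks open chromatin. The study's title links DNA breaks and chromatin structure to the transcription of AIRE target genes, and the windows described here are those where openness was highest when both treatments were combined.

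The DoxEtop columns summed to 5305079 and 5034832 counts, the Dox columns to 5169600 and 4489871, the Etop columns to 7134106 and 4568818, and the Control columns to 8275911 and 6787276. Because windows overlap and the table leaves out the rest of the genome, such sums are no measure of library depth, and a change of equal size everywhere would go unseen. The summed count of a window over all libraries was 111 at the lowest and 160 at the median. Windows carry no gene names in the table and no hg19 annotation or genome was used here, so windows are named by position and no sequence is shown.

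The same rule was applied to each of the other pairs. It kept 3374 windows for DoxEtop (1.32% of the table), 2074 for Dox (0.81%), 3278 for Etop (1.28%) and 1618 for Control (0.632%). Counted as regions, these were 1981, 1375, 1984 and 1029 in the same order. With all 8 libraries DoxEtop and Etop cells thus gave nearly equal numbers. The order of the pair depended on scaling, on the factor and on single libraries. With totals adjusted by edgeR's TMM method, which corrects each total for composition, the rule kept 3278 windows for DoxEtop and 3449 for Etop. With no margin it kept 16325 for DoxEtop and 12904 for Etop. At a factor of 1.5 it kept 697 and 833, and at a factor of 2 it kept 26 and 92. In each of these settings Dox and Control cells had fewer than DoxEtop and Etop cells. Leaving out a library of another group raised both numbers unequally. Without Control replicate 2 the rule kept 3793 windows for DoxEtop and 10932 for Etop, and without Control replicate 1 it kept 4309 and 4299. Without Dox replicate 1 it kept 5679 for DoxEtop and 3915 for Etop, and without Dox replicate 2 it kept 6565 and 3844. With all libraries kept, being highest in both libraries was about as frequent for etoposide alone as for both treatments at the factor of 1.25. At the wider margins it was more frequent for etoposide alone.

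**Figure D1:**
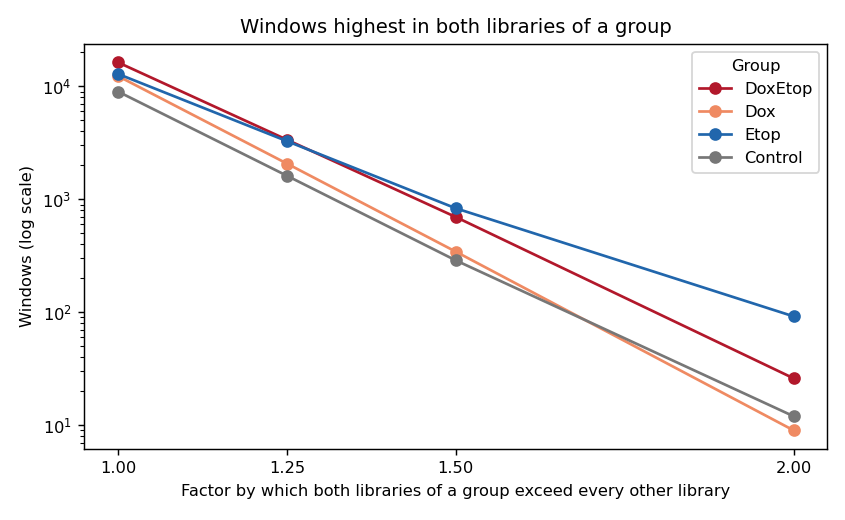
Number of windows (vertical axis, log scale) in which both libraries of a group exceed all 6 other libraries by the factor on the horizontal axis, for each of the 4 groups. DoxEtop has 3374 and Etop 3278 at a factor of 1.25, and the order is the other way at a factor of 2, with 26 for DoxEtop and 92 for Etop.

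Windows picked out by 1 library of a group were in part those picked out by the other. DoxEtop replicate 1 alone exceeded the 6 libraries of the other groups by the factor in 17727 windows (6.92% of the table), and DoxEtop replicate 2 alone did so in 13233 (5.17%). The windows shared by both are the 3374 described here, 19% of the first list and 25.5% of the second. Both lists are set against the same 6 other libraries, so a window low in those enters both more easily. Overlap above the shares of the table is therefore no measure of agreement between the replicates. For Dox the shared windows were 21% and 15.6% of the lists of replicates 1 and 2. For Etop they were 15.8% and 27.3%, and for Control 34% and 11.4%. The lists of replicates 1 and 2 held 3.85% and 5.2% of the table for Dox. They held 8.11% and 4.69% for Etop, and 1.86% and 5.55% for Control. Within the 3374 windows the higher DoxEtop library exceeded the lower by a median of 1.13 times, against 1.4 times over all windows, which the rule favours because both libraries must be high. DoxEtop replicate 1 was the higher of the pair in 1841 of the 3374 (54.6%, against 49.5% of all windows).

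At the chosen windows, DoxEtop replicates 1 and 2 had median levels of 5.65 and 5.36 CPM. Dox replicates 1 and 2 had 3.1 and 3.12, Etop replicates 1 and 2 had 2.52 and 2.85, and Control replicates 1 and 2 had 2.78 and 2.36 CPM. Over the whole table the library medians ran only from 3.48 to 3.58 CPM. The chosen windows were thus high in DoxEtop and, in each of the 6 other libraries, below that library's own table median. Mean DoxEtop levels were a median of 1.8 times the Dox mean, 2.13 times the Etop mean and 2.1 times the Control mean. Counts behind these levels were small, with medians of 30 and 27 in DoxEtop replicates 1 and 2, 16 and 14 in Dox, 18 and 13 in Etop, with 23 and 16 in Control. Counts of 0 were seen in Etop libraries alone, at 3 chosen windows in replicate 1 and 1 in replicate 2.

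**Figure D2:**
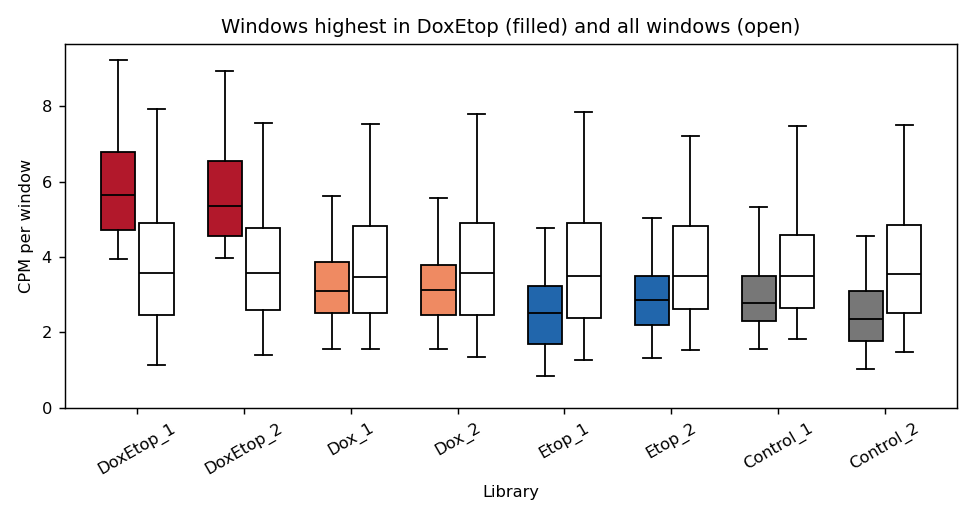
CPM per window in each library, at the windows highest in DoxEtop (filled boxes) and at all windows of the table (open boxes). Boxes span the quartiles with the median as a line, and whiskers reach the 5th and 95th percentiles. Median levels at the chosen windows are 5.65 and 5.36 CPM in DoxEtop and 2.36 to 3.12 CPM in the other libraries.

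The ratio had a median of 1.36 and quartiles of 1.3 and 1.47, and its maximum was 2.62. Counting error alone is wide at these depths. The exact 95% interval of the ratio, from the binomial distribution of the 2 counts (Clopper-Pearson), lay above 1 at 82 of the 3374 windows (2.43%). These intervals cover counting error only, and they are taken at windows chosen for a high ratio. Removing 1 count from the lower DoxEtop library at every window left 2462 windows past the factor, removing 2 left 1783 and removing 3 left 1269. The same removals left 2452, 1905 and 1420 of the Etop windows. At the edge of the rule, the window on chromosome 18 from 18822201 to 18822350 was just inside with a ratio of 1.2503. It had 6.6 and 5.96 CPM in DoxEtop, 2.9 and 3.56 in Dox, 4.77 and 1.75 in Etop, with 4.59 and 2.06 in Control. The window on chromosome 12 from 29936851 to 29937000 was just outside, with 6.03 and 5.56 CPM in DoxEtop and 4.45 CPM in Dox replicate 1, the highest other library. Its lower DoxEtop count was 28, so a single further read there would have brought it in.

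Among the other libraries, Dox came closest to DoxEtop at these windows. A Dox library was the highest of the 6 at 1715 of the 3374 windows (50.8%, against 39.2% of all windows). An Etop library was highest at 898 (26.6%, against 34.7% of all windows), and a Control library at 761 (22.6%, against 26.1%). The Dox mean lay above the Control mean at 2401 windows (71.2%, against 53.1% of all windows), and the Etop mean lay above it at 1638 (48.5%, against 49.7%). Both Dox libraries lay above both Control libraries at 1118 windows (33.1%, where 23.5% of all windows did so) and below both at 253 (7.5%, where 21.4% of all windows did so). Both Etop libraries lay above both Control libraries at 547 (16.2%, against 15.8% of all windows) and below both at 580 (17.2%, against 17.1%). Dox levels thus leaned toward the DoxEtop side of Control, while Etop levels were split as in the table as a whole. The rule sets an upper limit on all 6 of these libraries, so these shares describe the chosen windows and are not tests.

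The rule also used all 6 Dox, Etop and Control libraries, each held below DoxEtop, so the comparisons among them are listed here as a description of the chosen windows and nothing is read from their calls. For Dox vs Control, edgeR's quasi-likelihood test (adjusted p under 0.05, Benjamini-Hochberg over all windows) called 0 of the 3374 windows higher, where it called 0.0156% of all windows higher. It called 0 of them lower, where it called 0.848% of all windows lower. The smallest adjusted p among them by edgeR was 0.103. At an unadjusted p under 0.05, 67 of them passed (1.99%, against 10.9% of all windows), and DESeq2 called 0 of them. Their log2 fold change in Dox vs Control had a median of 0.18 and quartiles of -0.08 and 0.44, and the median over all windows was 0.02. For Etop vs Control, edgeR called 0 of the 3374 and 0 of all windows (0% higher and 0% lower), as did DESeq2. Here 93 of them (2.76%, against 5.57% of all windows) passed an unadjusted p under 0.05. Their median log2 fold change was -0.01 with quartiles of -0.34 and 0.27.

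The comparisons that set DoxEtop against the other groups also contain the values used by the rule, and their calls are likewise only listed. In DoxEtop vs Control, 124 of the 3374 windows were called higher by edgeR (3.68%) and 0 lower. Of all windows, 0.154% were called higher and 1.48% lower. In DoxEtop vs Etop, 225 were called higher (6.67%) and 0 lower, where 0.45% of all windows were called higher and 2.43% lower. Both counts depended strongly on single libraries, and so did the calls over all windows. DESeq2 called 27 chosen windows higher in DoxEtop vs Control (0.8%, against 0.018% of all windows). In DoxEtop vs Etop it called 42 higher (1.24%, against 0.0753% of all windows). The median log2 fold change of the chosen windows in DoxEtop vs Control was 1.04, and 0.94 to 1.15 with a library left out. In DoxEtop vs Etop it was 1.07, and 0.97 to 1.11 with a library left out. Such medians are high by the choice of windows.

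Set against cells with AIRE induction alone, no window of the table passed. In DoxEtop vs Dox, edgeR called 0 of the 3374 chosen windows and 0% of all 256141, and DESeq2 also called 0. The median log2 fold change of the chosen windows was 0.85 (quartiles 0.69 and 1.06), against 0.00 over all windows. An unadjusted p under 0.05 was reached at 1003 of them (29.7%, against 4.26% of all windows). The interaction term, built from the same values as the rule, asks whether the change with both treatments differs from the sum, on the log2 scale, of the changes with each. It too called 0 of the 3374 and 0% of all windows by edgeR, and 0 by DESeq2. Its median estimate at the chosen windows was 0.90 (quartiles 0.56 and 1.27), against 0.00 over all windows, and 552 of them (16.4%, against 4.14% of all windows) had an unadjusted p under 0.05. Both comparisons contain values used by the rule, so nothing is read from these estimates and shares. The smallest adjusted p by edgeR was 1 in both. No chosen window was called in DoxEtop vs Dox, in the interaction, in Dox vs Control or in Etop vs Control with another scaling, with DESeq2 or with a replicate term. The filter on low counts removed 0 windows, so a fit without it was the main fit again.

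The windows of highest ratio, 1 per region, lay on 9 chromosomes and had few counts. The first, on chromosome 8 from 37756751 to 37756900, had 5.84 and 5.96 CPM in DoxEtop (31 and 30 counts). Dox libraries had 1.55 and 2.23 CPM there, Etop libraries 0.981 and 1.09, and Control libraries 1.45 and 1.18 CPM. Its ratio was 2.62 (exact 95% counting interval 1.25 to 6), and with 111 counts over all 8 libraries it sat at the lowest sum in the table. All 6 other libraries were at 12 counts or fewer. Its region, from 37756651 to 37757200, held 7 windows, of which 4 were chosen.

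The window on chromosome 2 from 96811201 to 96811350 had 6.22 and 5.36 CPM in DoxEtop, 1.35 and 2 in Dox, 1.26 and 1.31 in Etop, with 2.05 and 1.47 in Control. DoxEtop was 3.45 times Dox, 4.5 times Etop and 3.28 times Control by group means. On chromosome 15, the window from 77224301 to 77224450 had 9.24 and 6.75 CPM in DoxEtop, 2.71 and 2.67 in Dox, 1.4 and 2.19 in Etop, with 2.42 and 2.5 in Control. Both windows thus had their 6 other libraries close together and far below DoxEtop. Over the whole 900 bp region around the chromosome 15 window, however, mean levels were 7.5 and 5.54 CPM in DoxEtop, 6.13 and 4.54 in Dox, 5.05 and 4.86 in Etop, with 4.44 and 4.77 in Control, and the groups overlapped.

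On chromosome 19, the window from 34181501 to 34181650 had 7.54 and 7.75 CPM in DoxEtop, 2.71 and 2.9 in Dox, 2.1 and 3.06 in Etop, with 2.17 and 2.5 in Control. On chromosome 17, the window from 79197151 to 79197300 had 7.73 and 9.33 CPM in DoxEtop, 3.1 and 2.23 in Dox, 3.22 and 1.75 in Etop, with 2.78 and 1.92 in Control. Over the 16 windows of the chromosome 17 region, 5 of them chosen, means were 6.09 and 6.64 CPM in DoxEtop and 3.16 to 4.57 CPM in the 6 others. On chromosome 22, the window from 21212601 to 21212750 had the highest sum of these 12 windows, 225 counts. Its levels were 9.24 and 9.33 CPM in DoxEtop, 3.87 and 4.01 in Dox, 3.92 and 3.06 in Etop, with 4.23 and 2.06 in Control, for a ratio of 2.18 (exact 95% counting interval 1.39 to 3.47).

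In the other 6 of these 12 windows the ratio was 2.09 to 2.25 and DoxEtop levels were 4.77 to 7.92 CPM. They lay on chromosomes 7 (from 43798301), 3 (from 156272701), 18 (from 74844351), 19 (from 1324951 and from 1104701) and 2 (from 231921601). The window on chromosome 3 had 6.41 and 5.36 CPM in DoxEtop, 1.93 and 1.11 in Dox, 1.26 and 1.53 in Etop, with 2.42 and 2.36 in Control. At that window each single treatment lay below both Control libraries while the combination lay above them. Over its 450 bp region the means were 4.85 and 5.79 CPM in DoxEtop and 2.98 and 2.2 in Dox. Etop had 1.56 and 2.5 CPM and Control 4.19 and 2.95, so Dox and Control overlapped. At the chromosome 19 window from 1104701, Etop replicate 2 held only 2 counts, and its 0.438 CPM sat well under the 2.38 CPM of Etop replicate 1. Over all 12, the fitted log2 fold change was 1.28 to 2.12 in DoxEtop vs Control, 1.18 to 1.93 in DoxEtop vs Dox and 1.35 to 2.46 in DoxEtop vs Etop. At 3 of them 1 library moved such a value by more than 1.5 times. At the chromosome 7 window the 1.84 of DoxEtop vs Control became 2.86 without Control replicate 1. In DoxEtop vs Etop, the 1.63 at the chromosome 19 window from 1324951 became 2.99 without Etop replicate 1 and 1.04 without Etop replicate 2. The 1.83 at the window from 1104701 became 3.60 and 1.17 without the same libraries.

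**Figure D3:**
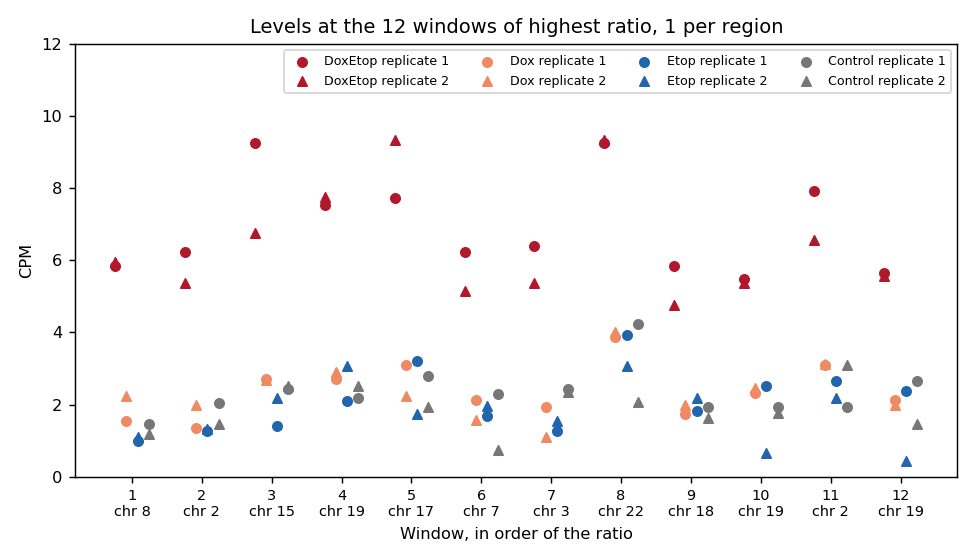
CPM (vertical axis) in each of the 8 libraries at the 12 windows of highest ratio, 1 per region and in order of the ratio along the horizontal axis, labelled by chromosome. Circles are replicate 1 and triangles replicate 2. DoxEtop points lie at 4.77 to 9.33 CPM, and the 6 other libraries lie at 4.23 CPM or less.

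Most chosen windows stood alone or with 1 neighbour. The 3374 windows formed 2219 runs of consecutive windows, of which 1511 (68.1%) were a single window and 32 were 5 windows or longer. The longest run had 9 windows and spanned 550 bp. Runs of 5 or more numbered 13 for the Dox windows, 31 for the Etop windows and 13 for the Control windows, and single windows were 74.3%, 65.9% and 70.3% of runs. Of the 1981 regions, 1182 held 1 chosen window and 49 held 5 or more. In 76 regions every window was chosen, and 19 of these had 3 or more windows. Of the 1981 regions, 130 (6.56%) also held a window highest in Etop, where 5.55% of all regions did, and these were 6.55% of the 1984 Etop regions. Windows highest in Dox shared 95 regions (4.8% of the 1981, where 3.85% of all regions held one, and 6.91% of the Dox regions). Windows highest in Control shared 54 (2.73%, where 2.88% of all regions held one, and 5.25% of the Control regions). These shares were near those over all regions. The 1981 regions were wider, however, with a median of 800 bp against 350 bp for all regions. How many shared regions their width alone would give was not tested.

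A region on chromosome 7, from 150865051 to 150865600, was chosen over its whole length of 9 windows. DoxEtop replicate 1 ranged from 4.71 to 7.73 CPM across it and DoxEtop replicate 2 from 4.17 to 6.36 CPM. The highest value of any other library in any of these windows was 3.78 CPM, in Etop replicate 1. Because every window here was chosen, the absence of overlap between DoxEtop and the other groups follows from the rule. Region means were 5.72 and 5.12 CPM in DoxEtop, 2.17 and 2.85 in Dox, 2.79 and 2.58 in Etop, with 2.51 and 2.73 in Control, so the Dox and Etop libraries lay close around those of Control.

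The region with the most chosen windows, 10 of 26, was on chromosome 14 from 77493951 to 77495350. Its chosen windows formed separate groups near both ends. In the middle of the region the groups overlapped, and at 575 bp from its start Etop replicate 1 had 5.19 CPM, above both DoxEtop libraries at 4.52 and 4.57 CPM. At 1075 bp DoxEtop had 7.35 CPM in each library, Dox 4.84 and 3.79, Etop 0.421 and 3.06, and Control 4.59 and 2.8 CPM. On chromosome 17, the region from 1011951 to 1013100 held 9 chosen windows of 17. Its means were 5.36 and 4.45 CPM in DoxEtop, 3.22 and 2.45 in Dox, 2.09 and 2.67 in Etop, with 2.36 and 1.4 in Control. On chromosome 1, the region from 26437301 to 26438950 held 8 chosen windows of 29, of which 7 formed 1 run near its start. Between its ends at least 1 library of every group passed 6 CPM, as the plot of these regions shows.

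In the other 4 regions with the most chosen windows, both DoxEtop region means lay above those of all 6 other libraries. The chosen windows are part of these means, so this follows in part from the choice. On chromosome 9, 8 of 22 windows were chosen between 131218101 and 131219400, with region means of 4.6 and 4.75 CPM in DoxEtop, 3.74 and 3.06 in Dox, 3.52 and 3.65 in Etop, with 3.11 and 2.2 in Control. On chromosome 5, 8 of 23 were chosen between 14664001 and 14665600, with 6.24 and 5.78 CPM in DoxEtop, 4.61 and 4.71 in Dox, 3.35 and 4.08 in Etop, with 4.28 and 2.99 in Control. On chromosome 16, 7 of 13 were chosen between 3507501 and 3508250, with 5.45 and 6.43 CPM in DoxEtop, 2.48 and 2.91 in Dox, 3.32 and 3.03 in Etop, with 3.64 and 1.87 in Control. The chromosome 5 region had Dox above Etop and Control, whereas the chromosome 16 region had Dox within the range of Control. On chromosome 2, 7 of 23 windows were chosen between 47596101 and 47597350, where DoxEtop means were 7.24 and 4.92 CPM and the 6 others lay between 2.95 and 3.75 CPM.

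**Figure D4:**
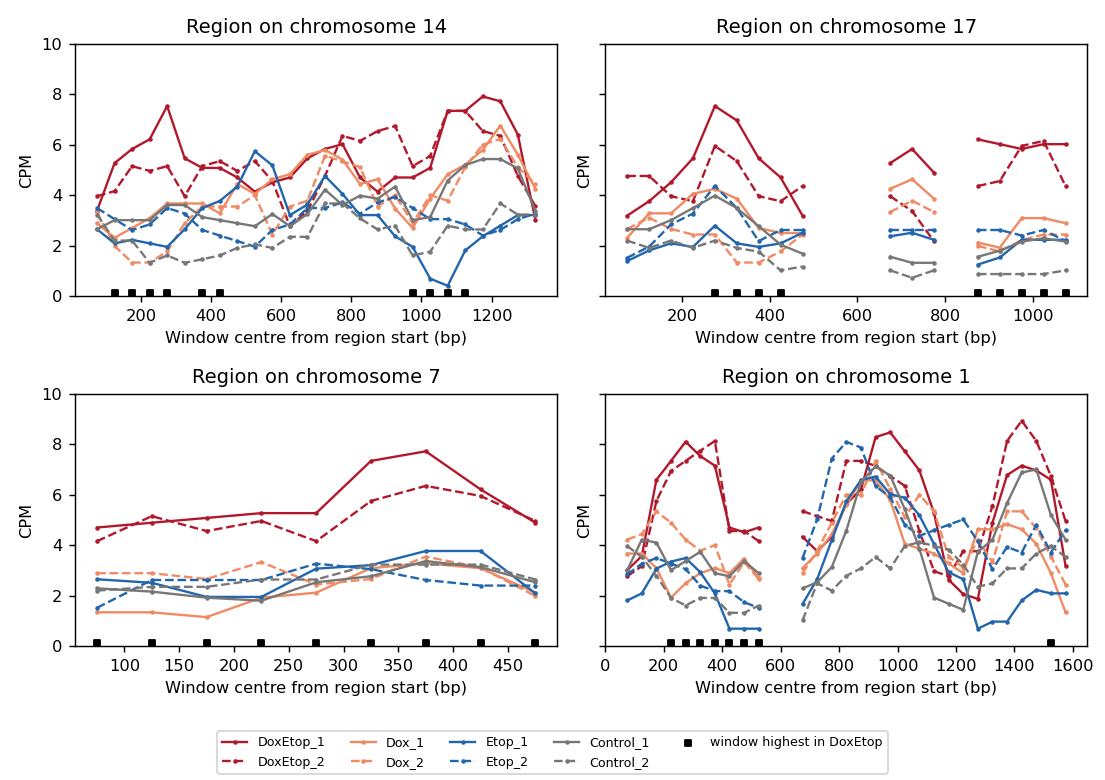
CPM per window (vertical axis) along the 4 regions with the most windows highest in DoxEtop, by distance of the window centre from the region start in bp, with 1 line per library and gaps where the table has no window. Black squares mark the chosen windows. In the chromosome 7 region both DoxEtop libraries stay above 4 CPM and all others below 4 CPM over its whole length. Every window there was chosen, so this separation follows from the rule. In the other 3 regions chosen and overlapping stretches alternate.

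The mean profile was narrow around the chosen centres. Around the 2219 runs, each centred on its window of highest ratio, mean levels at the centre were 5.88 and 5.74 CPM in DoxEtop, 3.23 and 3.19 in Dox, 2.59 and 2.89 in Etop, with 3.03 and 2.55 in Control. DoxEtop at the centre was 1.99 times the mean of the 6 others. At 250 bp after the centre this had dropped to 1.13 times, and at 500 bp to 1.06 times. The 6 other libraries dipped at the centre by comparison with their own flanks, where Dox had 4.33 and 4.44 CPM, Etop 3.75 and 3.96, and Control 3.97 and 3.54 CPM at 250 bp. At that distance DoxEtop had 4.64 and 4.38 CPM, so the Dox libraries were level with DoxEtop replicate 2 in the flanks. High DoxEtop levels and low levels of the others at the centre follow from its choice as the window of highest ratio. The flanks also hold other numbers of windows, 1132 at 250 bp and 749 at 500 bp after the centre, against 2219 at it. A window 250 bp away shares no bases with the chosen window, although a fragment can be counted in both.

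The windows of the other groups, centred likewise, gave profiles of the same form. At the centre Dox windows were 1.93 times the others, Etop windows 2.25 times and Control windows 2.05 times, and at 250 bp after it they were 1.09, 1.05 and 1.09 times. In windows of the same region that were not chosen and lay 150 to 300 bp from the nearest chosen window, both DoxEtop libraries exceeded all 6 others in 9.12% of 8151 windows, against 5.12% over all windows of the table not chosen for DoxEtop. At 350 to 500 bp the share was 5.57% and at 550 to 1000 bp 4.46%. For the Etop windows the matching shares were 6.12%, 3.15% and 2.66%, against 3.81% of windows not chosen for Etop. For the Dox windows they were 8.05%, 4.08% and 4.33%, against 4.04%. For the Control windows they were 7.37%, 2.86% and 2.03%, against 2.9%. In all 4 groups the share was thus well above that of the windows not chosen at 150 to 300 bp. At 350 to 500 bp it was slightly above for DoxEtop and Dox and below for Etop, with Control just below. At 550 to 1000 bp it was below for DoxEtop, Etop and Control and above for Dox.

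**Figure D5:**
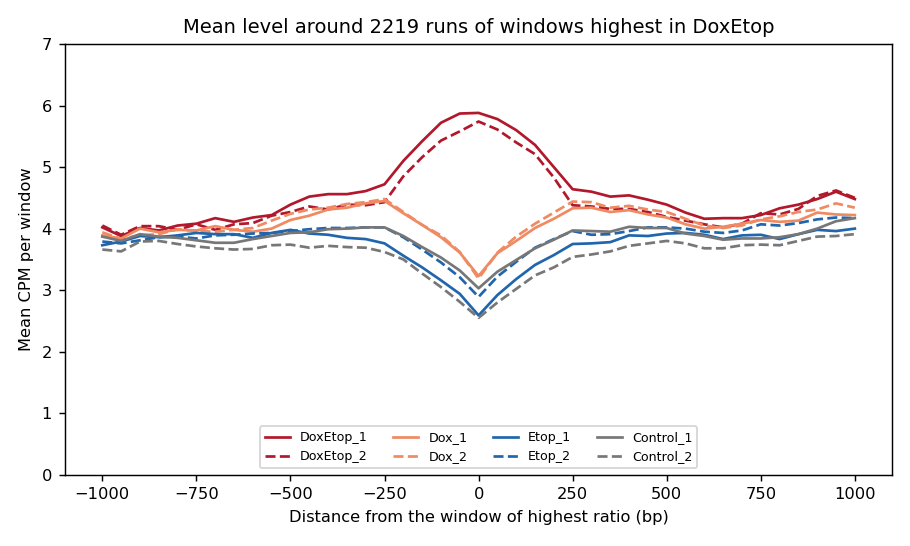
Mean CPM per window (vertical axis) in each library by distance in bp from the window of highest ratio of each of 2219 runs, over the table windows present at that distance. DoxEtop peaks at 5.88 and 5.74 CPM where the other libraries dip to 2.55 to 3.23 CPM, and at 250 bp after the centre the Dox libraries, at 4.33 and 4.44 CPM, are level with DoxEtop replicate 2 at 4.38 CPM.

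Counts summed over whole regions gave fewer regions and another order of the groups. By this measure, chosen after seeing the data, 274 of 35741 regions (0.767%) had both DoxEtop libraries more than 1.25 times every other library. The numbers were 201 for Dox, 494 for Etop and 218 for Control. Among regions of 5 windows or more they were 146 for DoxEtop, 80 for Dox, 137 for Etop and 89 for Control. The larger total for Etop thus came from regions with fewer than 5 windows.

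Chosen windows lay in wider regions than the table as a whole. Windows highest in DoxEtop had a median region width of 850 bp, against 700 bp over all windows. Those highest in Dox had 700 bp, and those highest in Etop or in Control 500 bp each. By region width, the rule kept 0.87% of windows at 300 bp or less, 1.07% between there and 500 bp, 1.4% between 500 and 1000 bp, 1.69% between 1000 and 2000 bp, and 1.25% beyond 2000 bp. For Etop the shares ran the other way, with 2.36% in the narrowest class and 0.936% between 1000 and 2000 bp. For Control they also fell, from 0.962% in the narrowest class to 0.422% beyond 2000 bp. For Dox they stayed between 0.535% and 0.927%. First or last windows of a region made up 20.5% of the chosen windows and 26.1% of the table. Regions that held a chosen window had a median width of 800 bp against 350 bp for all regions. A wide region offers more windows to the rule, and how much of this difference that makes was not tested.

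Chosen windows were slightly less covered than the table, with a median of 152 summed counts against 160. The rule kept 1.8% of the windows with the fewest counts (111 to 133 in sum, about the lowest 20% of the table) and 0.833% of those with the most (221 or more). Between the same end classes the share also fell for Dox, from 1.24% to 0.505%, and for Etop, from 1.48% to 0.608%. For Control the shares of these end classes were 0.46% and 0.546%. The fall was not steady for DoxEtop, with 1.26% at sums of 134 to 149 and 1.34% at 175 to 220. For Etop the share was highest at sums of 134 to 149, at 1.77%. Of the windows at or above the median sum, the rule kept 1466 for DoxEtop, 795 for Dox, 1234 for Etop and 777 for Control, so here DoxEtop had the most.

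The 6 windows with the highest sums had ratios of 1.25 to 1.4. The strongest, on chromosome 20 from 26189151 to 26189300, had 39.2 and 42.7 CPM in DoxEtop, 25.1 and 23.4 in Dox, 22 and 31.1 in Etop, with 29 and 19.9 in Control, a ratio of 1.26 (exact 95% counting interval 1.01 to 1.57). It was the single chosen window of a region of 33. Over that whole region the means were 49.2 and 58.6 CPM in DoxEtop, 29.7 and 34.4 in Dox, 25 and 44.5 in Etop, with 27.9 and 25.2 in Control, so both DoxEtop libraries were highest and the Etop libraries differed widely. On chromosome 19, the window from 36630901 to 36631050 had 23.4 and 20.1 CPM in DoxEtop, 13.2 and 15.6 in Dox, 9.95 and 10.3 in Etop, with 14.4 and 9.72 in Control. Its region, of 41 windows, had means of 6.7 to 7.61 CPM in all 8 libraries with no separation of the groups. Also on chromosome 19, the window from 41035201 to 41035350 had 17.5 and 17.3 CPM in DoxEtop, 12.4 and 9.35 in Dox, 10.7 and 10.3 in Etop, with 11.8 and 10.6 in Control, a ratio of 1.4.

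Across chromosomes the chosen windows were spread broadly, with members in 923 of the 2305 segments of 1 Mb that held any window. Chromosome 19 held 9.6% of the chosen windows and 15% of the table, so 0.843% of its windows were chosen, against 1.77% highest in Etop, 0.625% in Dox and 0.609% in Control. Chromosome 17 held 10.4% of the chosen windows and 8% of the table. Chromosomes 20, 9, 8 and 21 had the highest shares of their windows chosen, at 2.04%, 1.95%, 1.91% and 1.86%, and chromosomes 19 and X the lowest, at 0.843% each. Windows highest in Etop made up 0.888%, 1.03% and 0.866% on chromosomes 20, 9 and 8. On chromosome 21 they made up 1.98%, more than the chosen windows. The segments with the most regions holding a chosen window were on chromosome 19 from 1000001 to 2000000 (42 windows in 23 regions), on chromosome 1 from 1000001 to 2000000 (43 windows in 18 regions) and on chromosome 17 from 79000001 to 80000000 (34 windows in 18 regions). In these 3 segments 3.25%, 5.11% and 2.26% of the table's windows were chosen. Neighbouring segments of chromosome 9, from 139000001 to 140000000 and from 140000001 to 141000000, held 25 and 19 chosen windows in 16 and 11 regions.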

How the data were processed

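FAIRE-seq libraries of AIRE-Tet cells were made with TruSeq ChIP reagents and read as pairs of 100 bp, 2 times each, per the labels' protocols. The submitters' processing notes name Trim Galore, Bowtie2, Bowtie and hg19 with no version. How windows were chosen and counted, and the use of input and duplicates, is not given in the sources used here. The authors deposited raw counts per window, 1 column per library. From these, CPM used the column totals. The members and lists were chosen with earlier results of these data known.

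All windows were fitted in edgeR 4.0.16 (R 4.3.3): TMM scaling, filterByExpr (0 windows removed), 1 mean per group, glmQLFit and glmQLFTest, two-sided, Benjamini-Hochberg at 0.05. The common biological coefficient of variation was 26.4%. The fit of DoxEtop vs Control was also run on simulated counts. These were drawn separately for each window, so that run does not cover windows that share fragments. DESeq2 1.42.0 was an alternative. Named were the 12 regions of highest ratio, the 8 with most chosen windows, windows nearest the threshold and the 6 of highest sum. Overlapping windows share fragments, so windows are not independent. Gene and motif lists were not used because no hg19 genome was.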

Additional observations from a re-analysis of the deposited data

How the results depend on the processing

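The number of windows highest in DoxEtop was 16325 with no margin, 697 at a factor of 1.5 and 26 at a factor of 2, and that of regions 6686, 489 and 20. Only windows at or above the median sum gave 1466 windows in 926 regions. Windows that do not overlap, 98935 in number, gave 1283 for DoxEtop and 1375 for Etop. Both sets are smaller than the table of 256141 windows, so lower counts follow in part by construction. With 2 and 3 counts fewer in the lower library there were 1783 and 1269 windows in 1119 and 835 regions, and with counts summed per region 274 regions (both chosen after seeing the data). Leaving out each library gave 3793 to 17727 windows in 2193 to 6852 regions. These counts rise by construction when a library is left out. Calls over all windows were 4197 in DoxEtop vs Control (0 to 6786 with a library left out, 781 with DESeq2) and 7379 in DoxEtop vs Etop (80 to 15686, and 2255 with DESeq2). They were 2212 in Dox vs Control (0 to 4091, and 159 with DESeq2). They were 0 in DoxEtop vs Dox in each fit run. They were 0 in Etop vs Control (0 to 218 with a library left out, the most without Etop replicate 2) and 0 for the interaction (0 to 5, the 5 without Control replicate 2). The cause of these moves was not tested. Same-numbered replicates of different groups are not said to share a batch, and their deviations correlated at -0.073 to 0.12. Counting error at such low counts weakens these correlations, so they cannot decide whether the samples were paired. With the replicate number as a block, edgeR called 3434 windows in DoxEtop vs Control, 6511 in DoxEtop vs Etop, 1556 in Dox vs Control, 5 in Etop vs Control, and 0 in DoxEtop vs Dox and for the interaction. Of the chosen windows it called 82 higher in DoxEtop vs Control (2.43%, against 0.11% of all windows). In DoxEtop vs Etop it called 175 of them higher (5.19%, against 0.348% of all windows). Other scalings left these counts within 1.5 times. The filter on low counts removed 0 windows, so leaving it out could change nothing. At the 12 windows of highest ratio no fitted fold change of DoxEtop against another group reversed. The level of each window rests on few counts, which limits what a single window can show.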
